A study of Homo sapiens with 21 samples.

Results

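The MYC, MAX and MXD network is described here through 10 genes, MYC, MAX, MXD1, MXD3, MXD4, MXI1, MNT, MGA, MLX and MLXIP. They were chosen by name, by a rule that uses no measured value, although earlier results of these data were known. All 10 were found among the 28395 genes of the table, and all 10 passed the filter on low counts that left 16036 genes to test. The cells were Hs578T, an established human triple-negative breast cancer line labelled as wild type, and every culture was collected after 8 h. The 7 groups had 3 libraries each: DMSO, which is the solvent control; THZ531 at 0.1 μM; lapatinib at 3.16 μM; nilotinib at 1.0 μM; lapatinib at 3.16 μM with THZ531 at 0.1 μM; nilotinib at 1.0 μM with THZ531 at 0.1 μM; and THZ531 at 1.0 μM. THZ531 covalently blocks the transcription-associated kinases CDK12 and CDK13. Lapatinib targets EGFR and HER2, and nilotinib targets ABL kinases. The design asks how a low concentration of THZ531 acts alone and with either inhibitor, and how the combinations compare with the high concentration of THZ531. A single line was studied, so the values describe Hs578T only.

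MYC is a transcription factor that binds DNA as a heterodimer with MAX, at E-box motifs such as CACGTG, and drives genes of growth and ribosome production. MAX also pairs with the MXD proteins (MXD1, MXI1, MXD3 and MXD4), MNT and MGA, whose dimers occupy the same kind of site and mostly repress. MLX, a relative of MAX, pairs with MLXIP, also called MondoA, which responds to glucose-derived metabolites, and with some of the MXD and MNT proteins. MYC mRNA and MYC protein are both short-lived, and MYC is commonly amplified or highly expressed in triple-negative breast cancer.

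The libraries held 97612207 to 112229052 counts, and replicates of a group correlated at 0.990 or more on the log scale. The mesenchymal marker VIM stood at 6845 CPM (counts scaled to the library size) in DMSO, whereas the epithelial markers EPCAM and KRT19, the progesterone receptor PGR and the lymphocyte marker CD3E had at most 10 counts in any library. The epithelial keratins KRT8 and KRT18 were expressed, at 20.8 and 83.7 CPM in DMSO. The filter on low counts kept 3 of 5 epithelial and 5 of 5 mesenchymal markers that were checked. It also kept 2 of 3 receptors low in triple-negative cells, 2 of 4 immune and 2 of 3 endothelial markers. Near absence therefore holds only for the genes named. CPM is a share of the library after scaling by the trimmed mean of M values (TMM), so a lower share and less RNA per cell cannot be told apart. The 13 mitochondrially encoded mRNAs took 1.25% ± 0.09 of all counts in DMSO (SD, n = 3) and 1.602% ± 0.14, 1.56% ± 0.11 and 1.53% ± 0.22 in the lapatinib combination, the nilotinib combination and 1.0 μM THZ531. These 3 treatments, in which most tested genes were called, are named the strong treatments here. Scaling to these mRNAs moved the median Log2 FC of all genes by −0.68, −0.62 and −0.54 in those treatments. The Log2 FC below are on the TMM scale. For network genes against DMSO the mitochondrial scale is given where it changes a direction or a call. For genes of other lists it is given only as counts over the list, so calls of single genes there may not hold on it.

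Libraries of a group also differed in how their counts moved with transcript length and with GC content, the share of G and C bases. Over 8618 coding genes, the Spearman correlation of a library's deviation from its group mean with transcript length ran from −0.531 to 0.562. It was −0.43 in replicate 1 of the lapatinib combination, −0.491 in replicate 1 of the nilotinib combination and −0.371 in replicate 2 of 1.0 μM THZ531. These are the libraries in which MNT, MXD1 and MLXIP were lowest in their groups, and in which MGA was lowest too. Other libraries with such correlations did not show this for all 4 genes. In replicate 3 of DMSO (−0.531) MNT and MLXIP were not the lowest of the group. In replicate 1 of lapatinib alone (−0.51) MXD1 was not, and in replicate 1 of nilotinib alone (−0.443) MXD1 and MGA were not. The canonical transcripts of MGA, MLXIP, MXD1 and MNT have 12193, 8390, 5549 and 4925 bases, against a median of 3562 over those coding genes. The correlation with GC content ran from −0.714 in replicate 1 of DMSO to 0.59 in replicate 3 of 0.1 μM THZ531, and was 0.553 in replicate 2 of DMSO. MXD3, MXD4, MNT and MLXIP have 65.6%, 63.52%, 61.28% and 57.76% GC, against a median of 47.48%. MXD1, MGA and MXI1 have 42.51%, 43.23% and 43.75%, and MYC, MAX and MLX 48.78%, 49.4% and 49.92%. The part of transcript length or GC content in the values of the network genes was not tested.

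**Figure D1:**
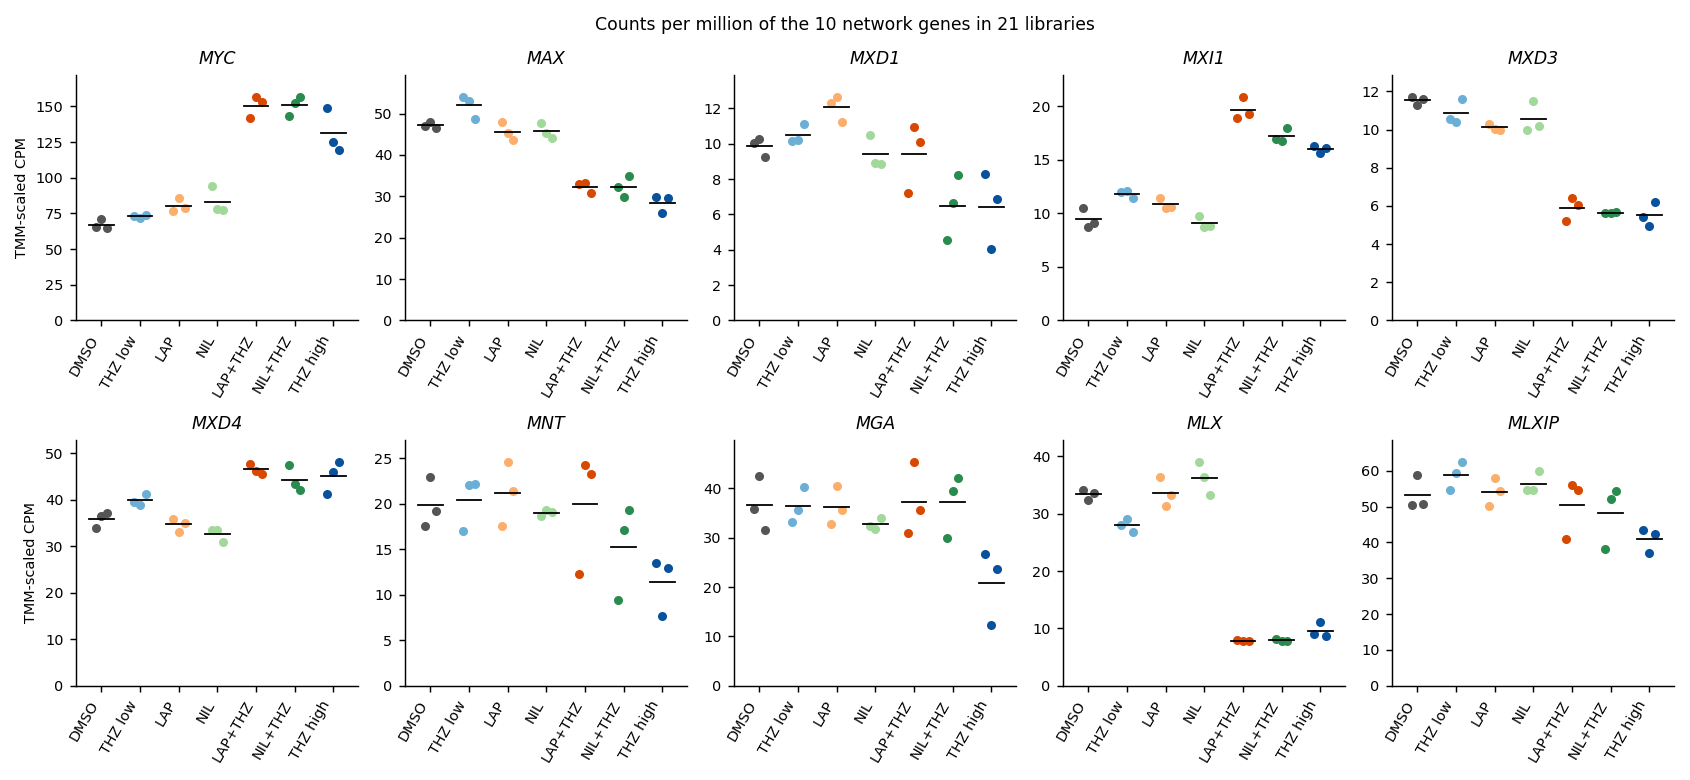
TMM-scaled CPM of each network gene in all 21 libraries; each point is a library, the bar is the group mean of 3, and every axis starts at 0. MYC, MXI1, MAX, MXD3 and MLX separate the 3 strong treatments (LAP+THZ, NIL+THZ, THZ high) from DMSO, whereas MNT, MGA and MXD1 spread widely between replicates.

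In DMSO, the genes were ordered by CPM per kilobase of canonical transcript, which allows levels of different genes to be compared. MAX stood first at 23.4 ± 0.37 CPM per kilobase (SD, n = 3), followed by MYC at 18.03 ± 0.94, MLX at 14.1 ± 0.37, MXD3 at 10.8 ± 0.21, MXD4 at 9.26 ± 0.42, MLXIP at 6.34 ± 0.56 and MNT at 4.03 ± 0.57. MGA at 3.00 ± 0.46, MXI1 at 2.72 ± 0.26 and MXD1 at 1.77 ± 0.10 closed the order, and MGA and MXI1 did not differ beyond their spread. In the lapatinib combination MYC stood first, at 40.4 ± 2.0 CPM per kilobase against 16.1 ± 0.64 for MAX. MLX had moved below MLXIP, MXD4, MXD3, MXI1 and MNT, at 3.33 ± 0.04, within the spread of its neighbours MNT, at 4.06 ± 1.3, and MGA, at 3.05 ± 0.60. The order depended on the length used. Per kilobase of the union of exons MYC stood first already in DMSO, at 11.0 ± 0.57, followed by MLX at 7.84 ± 0.21 and MAX at 7.53 ± 0.12, with MXD3 in place 6 at 2.43 ± 0.05. The paralogues MYCN and MLXIPL held at most 6 counts in any library and MYCL at most 40, so that MYC and MLXIP carried nearly all counts of their families.

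MYC mRNA was higher in both combinations and with 1.0 μM THZ531, by 1.96- to 2.25-fold, and was not called with 0.1 μM THZ531, lapatinib or nilotinib alone. MYC lies on chromosome 8 (gene ID 4609). Its CPM were 65.8, 71.0 and 64.4 in DMSO and 73.4, 71.9 and 74.1 with 0.1 μM THZ531. Lapatinib alone gave 76.8, 85.6 and 78.8, and nilotinib alone 94.3, 78.0 and 77.5. They reached 142, 157 and 153 in the lapatinib combination, 144, 153 and 157 in the nilotinib combination, and 149, 125 and 120 with 1.0 μM THZ531. All 9 libraries of the strong treatments lay above all 12 others. The Log2 FC against DMSO was 1.17 (SE 0.09, adjusted p = 2.21e-10) in the lapatinib combination, 1.17 (SE 0.09, adjusted p = 2.28e-10) in the nilotinib combination and 0.97 (SE 0.09, adjusted p = 4.58e-09) with 1.0 μM THZ531, from edgeR's quasi-likelihood test. In these comparisons 93.3%, 94% and 93% of all tested genes had a lower Log2 FC than MYC. On the mitochondrial scale MYC was still called higher, at 0.48, 0.55 and 0.41. The libraries of lapatinib and nilotinib alone also lay above those of DMSO, but Log2 FC of 0.26 (adjusted p = 0.365) and 0.31 (adjusted p = 0.117) did not pass the test. DESeq2 called MYC higher with nilotinib (Log2 FC 0.32, adjusted p = 0.0207).

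MAX, the shared partner without which MYC does not bind DNA, went the other way. MAX (gene ID 4149) lies on the minus strand of chromosome 14, at chr14:65006101-65102695 in GRCh38. Its CPM were 46.9, 48.0 and 46.5 in DMSO, 33.0, 33.1 and 30.9 in the lapatinib combination, 32.3, 29.9 and 34.9 in the nilotinib combination, and 29.7, 25.9 and 29.5 with 1.0 μM THZ531. No strong-treatment library reached the lowest of DMSO. The Log2 FC was −0.54 (SE 0.07, adjusted p = 1.26e-06), −0.54 (SE 0.07, adjusted p = 1.37e-06) and −0.73 (SE 0.07, adjusted p = 2.62e-08). With 0.1 μM THZ531 the MAX CPM were 54.0, 53.1 and 48.8, above all DMSO libraries but not called (Log2 FC 0.14, adjusted p = 0.3). MAX shares 56550 bases of its locus with FNTB, and the libraries were unstranded, but FNTB held 7594 counts over all libraries against 91280 for MAX.

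The 4 MXD genes, which encode MAX-binding antagonists of MYC, split by member. MXI1 and MXD4 rose in the combinations and with 1.0 μM THZ531, MXD3 fell, and the calls of MXD1 depended on single libraries. MXI1 (gene ID 4601, chr10:110207605-110287365, plus strand) had CPM of 10.47, 8.73 and 9.09 in DMSO and 11.96, 12.1 and 11.5 with 0.1 μM THZ531. It reached 18.9, 20.9 and 19.3 in the lapatinib combination, 16.9, 16.8 and 17.97 in the nilotinib combination, and 16.3, 15.6 and 16.1 with 1.0 μM THZ531. Groups with THZ531 lay above DMSO without overlap, and those with 0.1 μM THZ531 alone lay between DMSO and the strong treatments. Lapatinib alone, at 11.4, 10.48 and 10.6, also lay above DMSO without overlap but was not called (Log2 FC 0.20, adjusted p = 0.493). Nilotinib alone overlapped DMSO. In the strong treatments the Log2 FC was 1.06 (SE 0.08, adjusted p = 1.42e-10), 0.87 (SE 0.08, adjusted p = 2.97e-09) and 0.76 (SE 0.08, adjusted p = 2.39e-08). Mitochondrial scaling gave 0.37, 0.24 and 0.22, and only the lapatinib combination was still called (adjusted p = 0.0198; 0.14 and 0.201 for the others).

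MXI1 was also the only network gene called with 0.1 μM THZ531 alone, with a Log2 FC of 0.33 (SE 0.08, adjusted p = 0.0115). In that comparison 6.09% of all tested genes were called, 4.31% lower and 1.78% higher. This call was close to the threshold: the adjusted p lay between 0.0501 and 0.075 when replicate 2 or 3 of DMSO or replicate 1 or 2 of 0.1 μM THZ531 was left out, and it was 0.336 on the mitochondrial scale. MLX came next, with CPM of 28.1, 29.1 and 26.9 against 34.1, 32.4 and 33.7 in DMSO. Its groups did not overlap, but the Log2 FC of −0.25 (adjusted p = 0.0893) did not pass.

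MXD3 (gene ID 83463, chr5:177305499-177312752, minus strand) had CPM of 11.7, 11.3 and 11.6 in DMSO. They were 5.21, 6.40 and 6.06 in the lapatinib combination, 5.61, 5.65 and 5.66 in the nilotinib combination, and 5.44, 4.94 and 6.22 with 1.0 μM THZ531. The highest strong-treatment library was below the lowest of the other groups, which was 9.96. The Log2 FC was −0.97 (SE 0.09, adjusted p = 7.19e-09), −1.03 (SE 0.09, adjusted p = 3.14e-09) and −1.06 (SE 0.09, adjusted p = 2.68e-09). MXD3 overlaps PRELID1 by 1451 bases, and PRELID1 held 213492 counts against 19564 for MXD3, so reads of the shared stretch cannot be told apart without strand.

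MXD4 (gene ID 10608, chr4:2247432-2262109, minus strand) was above DMSO without overlap in all 3 strong treatments, but by a small margin. Its CPM were 34.0, 36.5 and 37.0 in DMSO, 47.7, 46.2 and 45.6 in the lapatinib combination, 47.4, 43.4 and 42.0 in the nilotinib combination, and 41.1, 45.9 and 48.0 with 1.0 μM THZ531. Values of Log2 FC of 0.38 (adjusted p = 6.97e-05), 0.31 (adjusted p = 5.99e-04) and 0.33 (adjusted p = 3.02e-04) turned to −0.31, −0.31 and −0.20 on the mitochondrial scale, where none was called, and were 0.05, 0.00 and 0.07 when counts were scaled by library size alone.

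MXD1 (gene ID 4084, chr2:69915109-69942945, plus strand) had CPM of 10.0, 10.3 and 9.24 in DMSO and 7.19, 10.95 and 10.1 in the lapatinib combination, which overlapped. It was 4.56, 6.64 and 8.24 in the nilotinib combination and 8.27, 4.03 and 6.89 with 1.0 μM THZ531, all below DMSO. The lower levels in the nilotinib combination (Log2 FC −0.60, adjusted p = 0.0138) and with 1.0 μM THZ531 (Log2 FC −0.62, adjusted p = 0.0118) were called. Without replicate 1 of the nilotinib combination the first became −0.40 (adjusted p = 0.0923), and without replicate 2 of 1.0 μM THZ531 the second became −0.38 (adjusted p = 0.0777). The second was also lost with upper-quartile scaling (−0.43, adjusted p = 0.0575). On the mitochondrial scale MXD1 was called lower in the lapatinib combination as well (−0.75, adjusted p = 2.52e-04).

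MNT and MGA are larger repressors that also pair with MAX. Both were called lower with 1.0 μM THZ531 and in neither combination. MGA (gene ID 23269, chr15:41621224-41769940, plus strand) had CPM of 35.7, 42.5 and 31.5 in DMSO, 30.9, 45.3 and 35.5 in the lapatinib combination, 30.0, 39.5 and 42.1 in the nilotinib combination, and 26.6, 12.4 and 23.7 with 1.0 μM THZ531. Replicate 2 of the last group stood lowest, and all 3 of its libraries lay below those of DMSO. The Log2 FC with 1.0 μM THZ531 was −0.81 (SE 0.20, adjusted p = 0.00156), and −0.54 (adjusted p = 0.00627) without replicate 2. Both combinations had a Log2 FC of 0.03, with 95% intervals of −0.40 to 0.45. These became −0.65 and −0.60, called lower, on the mitochondrial scale.

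MNT (gene ID 4335, chr17:2384073-2401060, minus strand) had CPM of 17.5, 22.9 and 19.2 in DMSO, 12.3, 24.3 and 23.3 in the lapatinib combination, 9.37, 17.1 and 19.4 in the nilotinib combination, and 13.5, 7.65 and 13.0 with 1.0 μM THZ531. In both combinations replicate 1 was the low library. The Log2 FC with 1.0 μM THZ531 was −0.80 (SE 0.26, adjusted p = 0.0088), and −0.59 (adjusted p = 0.0566) without replicate 2. It was 0.01 (95% interval −0.52 to 0.54) in the lapatinib combination and −0.38 (95% interval −0.91 to 0.15) in the nilotinib combination. MNT was called lower in both on the mitochondrial scale, at −0.68 and −1.01, and in the nilotinib combination with scaling by library size (−0.68, adjusted p = 0.0257).

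MLX moved furthest of the network. MLX (gene ID 6945) lies on the plus strand of chromosome 17, at chr17:42567100-42573203. Its CPM were 34.1, 32.4 and 33.7 in DMSO. Lapatinib alone gave 36.4, 31.3 and 33.3, and nilotinib alone 39.0, 36.5 and 33.2. They fell to 7.96, 7.84 and 7.77 in the lapatinib combination, 8.21, 7.81 and 7.83 in the nilotinib combination, and 9.03, 11.1 and 8.69 with 1.0 μM THZ531. The 6 combination libraries span a narrow range below all others. MLX was 4.25-fold lower than DMSO in the lapatinib combination (Log2 FC −2.09, SE 0.09, adjusted p = 6.82e-14), 4.197-fold lower in the nilotinib combination (Log2 FC −2.07, SE 0.09, adjusted p = 8.19e-14) and 3.47-fold lower with 1.0 μM THZ531 (Log2 FC −1.80, SE 0.09, adjusted p = 1.04e-12). Of all tested genes, 6.77%, 6.7% and 6.64% had a still lower Log2 FC in these comparisons. MLX overlaps PSMC3IP by 894 bases, and that gene held 10079 counts against 52266 for MLX.

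MLXIP, the glucose-sensing partner of MLX, did not follow it. MLXIP (gene ID 22877, chr12:122078756-122147344, plus strand) had CPM of 50.3, 58.7 and 50.7 in DMSO, 41.0, 56.0 and 54.6 in the lapatinib combination, 38.1, 52.0 and 54.2 in the nilotinib combination, and 43.4, 37.1 and 42.5 with 1.0 μM THZ531. The combinations overlapped DMSO, with Log2 FC of −0.08 (95% interval −0.33 to 0.18) and −0.15 (95% interval −0.41 to 0.11). The call with 1.0 μM THZ531 (Log2 FC −0.38, adjusted p = 0.011) was lost without replicate 2 of that group (adjusted p = 0.0531) or of DMSO (adjusted p = 0.0591), and with upper-quartile scaling (Log2 FC −0.18, adjusted p = 0.184). MLXIP was called lower in the combinations too on the mitochondrial scale, at −0.76 and −0.77 against −2.77 and −2.69 for MLX, and with scaling by library size, at −0.40 and −0.45 against −2.41 and −2.37.

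**Figure D2:**
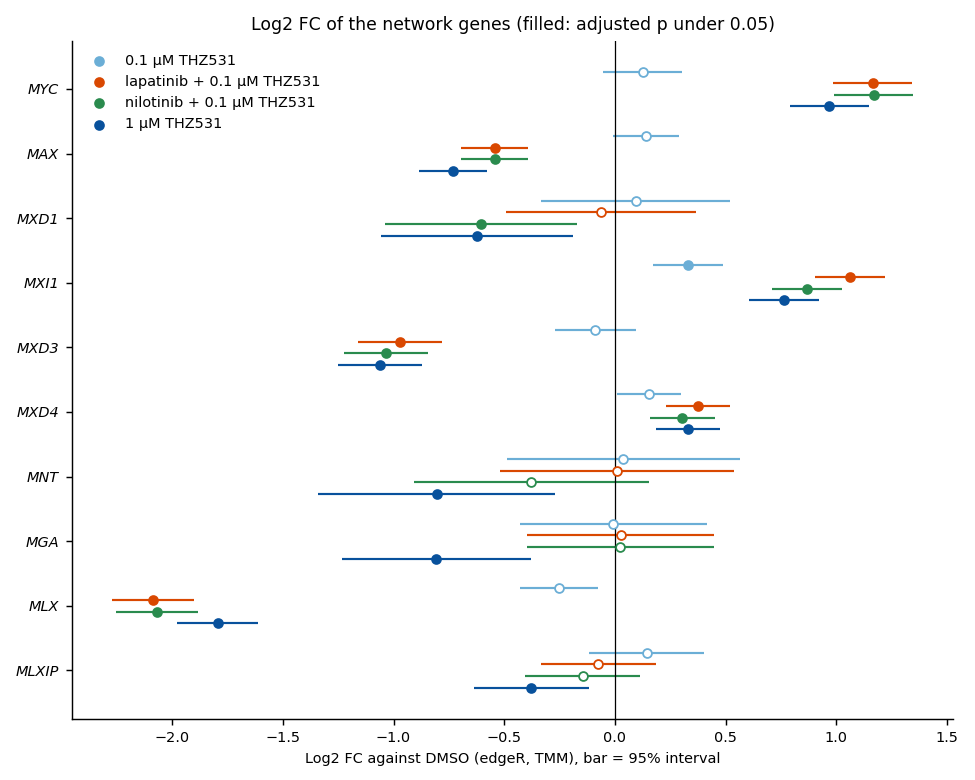
Log2 FC against DMSO of each network gene with 0.1 μM THZ531, both combinations and 1.0 μM THZ531; points are edgeR estimates on the TMM scale, bars are 95% intervals and filled points passed an adjusted p of 0.05. In the combinations and with 1.0 μM THZ531, MLX stands apart at −1.80 to −2.09 and MYC and MXI1 are the highest. MXI1 alone is filled with 0.1 μM THZ531.

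The E-box CACGTG was searched in the RefSeq promoter windows (GRCh38.p14, 250 bases before to 50 after the start site), which were available for 9 of the 10 genes and not for MYC. It reads the same on both strands. It occurred in the windows of MLX, MNT and MXD4 and in none of those of MAX, MXD1, MXD3, MXI1, MGA and MLXIP, where 7.26% of all 35116 promoter windows, and 8.77% of the 27305 genes with a window, held it. The matches lie 50, 193 and 238 bases before the start of MLX, MNT and MXD4. In the combinations MLX fell, MXD4 rose and MNT was not called on the TMM scale. On the mitochondrial scale MXD4 was not called there and MNT was called lower. The matches are shown because CACGTG is the motif of the dimers that these genes encode. Capitals mark it, and each line is read 5′ to 3′ on the strand of the gene.
MLX (chr17:42567038-42567067, plus strand): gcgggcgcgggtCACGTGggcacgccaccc
MNT (chr17:2401236-2401265, minus strand): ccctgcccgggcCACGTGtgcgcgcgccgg
MXD4 (chr4:2262330-2262359, minus strand): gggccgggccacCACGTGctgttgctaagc
The bases around the motif differ between the 3 genes, and a match is a run of letters, not a measured binding site.

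Counted over the network, the lapatinib combination had 3 members lower (MAX, MXD3, MLX) and 3 higher (MYC, MXD4, MXI1) than DMSO, where 72.1% of all tested genes were called, 37.8% lower and 34.3% higher. The nilotinib combination had 4 lower, MXD1 being the added member, and the same 3 higher, where 71% were called, 37.3% lower and 33.7% higher. With 1.0 μM THZ531 all 10 were called, 7 lower and 3 higher, where 69.9% were called, 36.8% lower and 33.1% higher, and without replicate 2 of that group the lower count was 4. In the combinations these shares of called members lie near the background. With lapatinib or nilotinib alone, edgeR called no member, where 0.312% and 0.343% of genes were called (0.0561% and 0.0998% lower, 0.256% and 0.243% higher). At an unadjusted p under 0.05 there were 3 members with lapatinib (MYC and MXI1 higher, MXD3 lower) and 1 with nilotinib (MYC higher), and DESeq2 called 0 and 1. The shares of all genes above are for edgeR's adjusted p. No share is given for these other counts, so they cannot be read as an excess among the members. The median Log2 FC of the 10 genes was −0.03, −0.26 and −0.68 in the strong treatments, beside −0.01 over all genes in each.

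Measured against the agents they contain, the combinations gave much the same members. Adding 0.1 μM THZ531 to lapatinib gave 3 members lower and 3 higher (72.3% of genes called, 37.4% lower and 34.9% higher), and adding it to nilotinib gave 4 lower and 3 higher (70.3% called, 36.7% lower and 33.6% higher). MLX fell most in both, with a Log2 FC of −2.10 against lapatinib alone and −2.19 against nilotinib alone. Adding lapatinib to 0.1 μM THZ531 gave 3 lower and 3 higher (71.1% called, 36.1% lower and 35% higher), and adding nilotinib gave 5 lower and 2 higher (70% called, 35.6% lower and 34.3% higher). Raising THZ531 from 0.1 to 1.0 μM gave 7 lower and 3 higher (70.2% called, 35.9% lower and 34.3% higher).

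Because both partners of a pair are counted in the same library, their ratio does not depend on how libraries are scaled. The count of MYC per count of MAX was 1.42 ± 0.05 in DMSO (SD, n = 3) and 1.41 ± 0.09 with 0.1 μM THZ531. It was 4.66 ± 0.33 in the lapatinib combination, 4.68 ± 0.37 in the nilotinib combination and 4.63 ± 0.52 with 1.0 μM THZ531, which is 3.27, 3.29 and 3.26 times DMSO. With lapatinib and nilotinib alone it was 1.77 ± 0.15 and 1.82 ± 0.14, also without overlap with DMSO. Leaving out any library kept the 3 strong folds between 3.12 and 3.46. A two-sided exact permutation test gave p = 0.1 for these 5 ratios that did not overlap DMSO, which is the smallest p that 3 libraries against 3 allow, and p = 0.8 for 0.1 μM THZ531.

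The ratios with MLX also shifted. There were 1.598 ± 0.19 counts of MLXIP per count of MLX in DMSO and 2.101 ± 0.20 with 0.1 μM THZ531. The ratio reached 6.44 ± 1.12 in the lapatinib combination, 6.07 ± 1.25 in the nilotinib combination and 4.34 ± 0.87 with 1.0 μM THZ531. The ratio of MAX to MLX, 2 factors that share some of the MXD proteins as partners, was 1.41 ± 0.06 in DMSO. It was 1.85 ± 0.06 with 0.1 μM THZ531, 4.11 ± 0.13 and 4.07 ± 0.34 in the combinations and 3.01 ± 0.59 with 1.0 μM THZ531. Groups with THZ531 had no overlap with DMSO in either ratio, and the exact permutation p was 0.1 in each. With lapatinib alone MLXIP per MLX was 1.01 and MAX per MLX 0.96 times DMSO, both overlapping it. With nilotinib alone the first overlapped (0.98 times DMSO) and the second was lower without overlap (0.895 times, exact permutation p = 0.1).

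**Figure D3:**
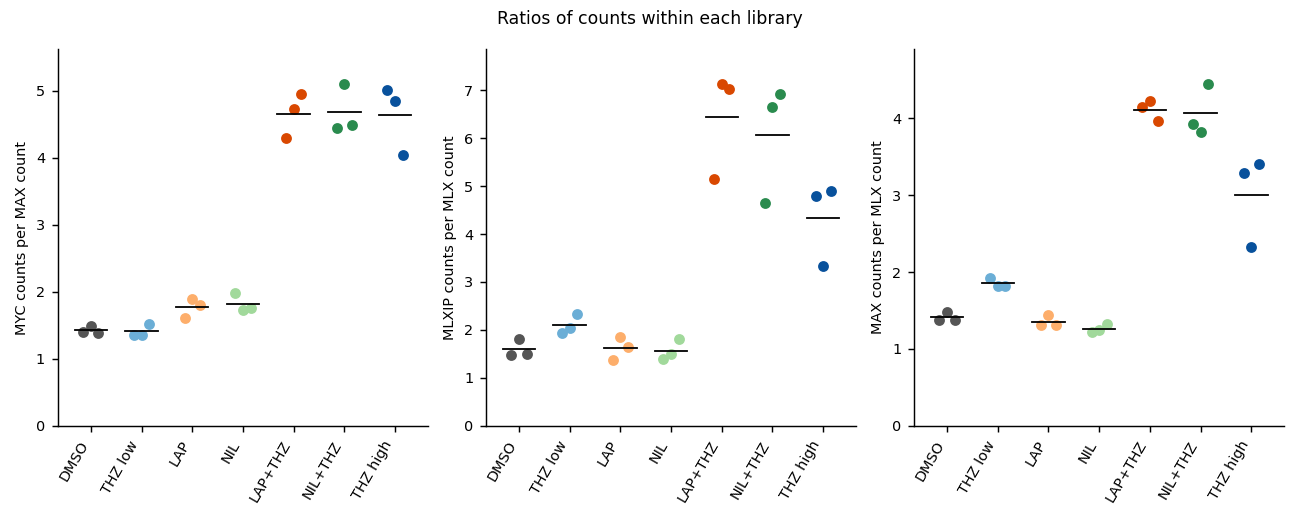
Ratios of raw counts within each library for MYC to MAX, MLXIP to MLX and MAX to MLX in the 7 groups; points are libraries, bars are means of 3, and axes start at 0. MYC per MAX has means of 4.63 to 4.68 in the 3 strong treatments, whereas the means of both ratios with MLX are higher in the combinations than with 1.0 μM THZ531, with overlap for MLXIP to MLX in the nilotinib combination.

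MAX has several partners, and the share of MYC among them was computed from counts per base of canonical transcript over MYC, the 4 MXD genes, MNT and MGA. MYC made up 36.3% ± 0.66 of the 7 in DMSO and 37.4% ± 0.98 with 0.1 μM THZ531. Lapatinib alone gave 41.1% ± 1.00 and nilotinib alone 43.3% ± 2.8. It made up 55.9% ± 0.98 and 58.3% ± 0.07 in the combinations and 56.9% ± 3.7 with 1.0 μM THZ531. MAX itself fell from 0.473 ± 0.009 per unit of summed partners in DMSO to 0.223 ± 0.019, 0.231 ± 0.017 and 0.228 ± 0.012. These are shares of mRNA, and protein was not measured.

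Within the MXD family the share of MXD3 was lower and those of MXI1 and MXD4 were higher, in counts per base of canonical transcript. MXD3 held 44.03% ± 0.62 in DMSO and 22.1% ± 1.5, 23.1% ± 0.44 and 22.9% ± 1.4 in the strong treatments. MXI1 moved from 11.1% ± 1.1 to 22.8% ± 0.42, 21.7% ± 0.86 and 20.5% ± 1.1, and MXD4 from 37.7% ± 1.7 to 48.3% ± 2.8, 50.0% ± 2.6 and 51.5% ± 3.1. MXD1 held 7.22% ± 0.44 in DMSO and 5.10% ± 1.7 to 6.79% ± 1.2 in the strong treatments. Which gene leads depended on the length used: per base of the union of exons MXD4 led already in DMSO, at 48.3% ± 2.1 against 22.5% ± 0.43 for MXD3. On that length MXD3 held 9.67%, 10.3% and 10.2%, and MXI1 26.0%, 25.2% and 23.7% against 14.8% in DMSO. With 0.1 μM THZ531 alone the shares of MXI1 (13.3% ± 0.85) and MXD4 (39.9% ± 0.28) were above those of DMSO and that of MXD3 (39.4% ± 0.96) was below, without overlap. With lapatinib alone MXI1 (13.2% ± 0.25) and MXD1 (9.16% ± 0.60) were above and MXD3 (40.0% ± 0.49) below.

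**Figure D4:**
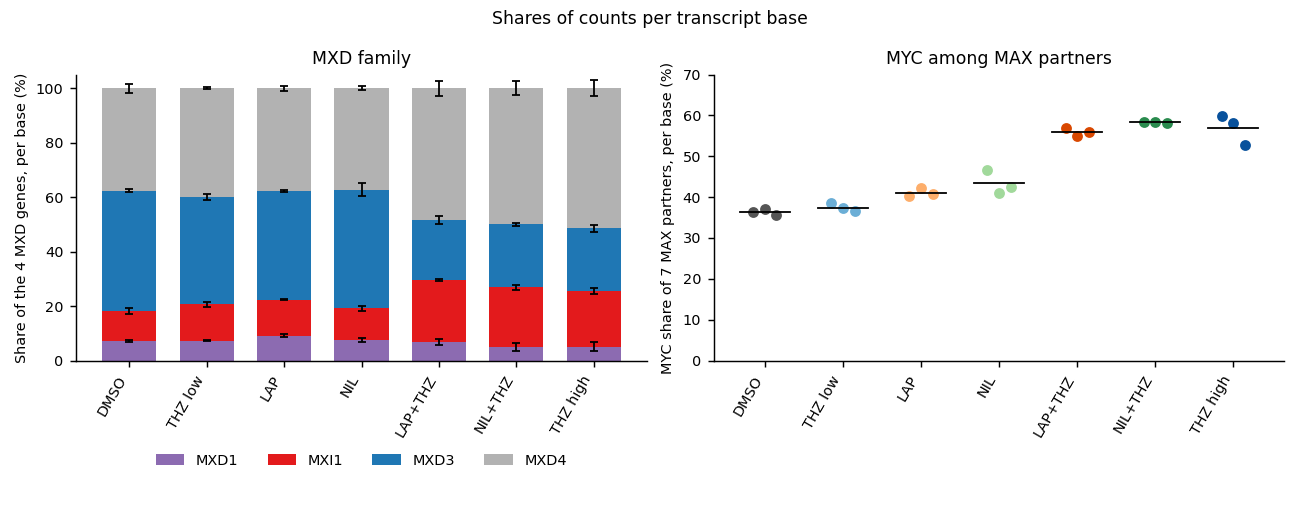
Left, mean share of the 4 MXD genes in their summed counts per transcript base, with SD over 3 libraries as error bars; right, share of MYC among 7 partners of MAX in each library, with group means. On canonical lengths the MXD3 share falls from 44.03% to between 22.1% and 23.1%, and the MYC share is 52.8% or more in every library of the strong treatments.

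Whether the combinations exceeded their parts was tested with an interaction term, the Log2 FC of the combination less those of both agents. The term was called for 6 of 10 members with lapatinib, where it was called for 60.3% of all tested genes (32% lower, 28.2% higher), and for the same 6 with nilotinib, where it was called for 56.8% (31.2% lower, 25.6% higher). MAX, MXD3 and MLX had negative terms and MYC, MXD4 and MXI1 positive ones. MLX had the largest, at −1.85 (SE 0.12, adjusted p = 1.33e-10) with lapatinib and −1.94 (SE 0.12, adjusted p = 7.84e-11) with nilotinib. MYC had 0.78 (adjusted p = 1.35e-05) and 0.73 (adjusted p = 3.06e-05). MNT, MGA, MXD1 and MLXIP had no called term with either agent. On the mitochondrial scale the terms of MAX, MXD1, MXD3, MNT, MLX and MLXIP were called lower with each inhibitor. Those of MYC, MGA, MXI1 and MXD4 were not called there, and the values of MXD4 (−0.28 and −0.15) and, with lapatinib, of MXI1 (−0.01) were negative.

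The combinations did not differ from each other at any member, where 1.47% of genes were called (0.736% lower, 0.73% higher). The differences of MYC (Log2 FC 0.00, 95% interval −0.18 to 0.17), MAX (0.00, −0.15 to 0.15) and MLX (−0.02, −0.20 to 0.17) lay near 0. For MXI1 all 3 libraries of the lapatinib combination lay above those of the nilotinib combination, without passing the test (Log2 FC 0.19, 95% interval 0.04 to 0.35, adjusted p = 0.254), and MXD1 had the largest difference (Log2 FC 0.54, 95% interval 0.10 to 0.98, adjusted p = 0.248). At an unadjusted p under 0.05 these 2 were counted, and DESeq2 called 0, with no share of all genes given for either count. Lapatinib against nilotinib alone also gave no call, where 0.904% of genes were called (0.549% lower, 0.355% higher); MXI1 had the smallest unadjusted p (Log2 FC 0.25, adjusted p = 0.135), and DESeq2 called 0.

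Against 1.0 μM THZ531, MLX was lower in both combinations, with a Log2 FC of −0.29 (SE 0.09, adjusted p = 0.0166) and −0.27 (SE 0.09, adjusted p = 0.0268). MGA was higher in both, at 0.83 (SE 0.20, adjusted p = 0.00395) and 0.83 (SE 0.20, adjusted p = 0.00469). MXI1 (0.30, adjusted p = 0.00481) and MNT (0.81, adjusted p = 0.0215) were called higher in the lapatinib combination. In the nilotinib combination MXI1 had 0.11 (95% interval −0.05 to 0.26) and MNT 0.43 (95% interval −0.11 to 0.96), which did not pass, and MNT was called without replicate 1 of that combination (0.68, adjusted p = 0.0462). Mitochondrial scaling lost the call of MXI1 in the lapatinib combination (0.16, adjusted p = 0.481) and of MLX in the nilotinib combination (−0.35, adjusted p = 0.125). On the TMM scale 28.9% (16.1% lower, 12.8% higher) and 24.2% (13% lower, 11.2% higher) of all tested genes were called in these comparisons. None of these calls held when only the 2 groups compared were fitted (adjusted p of 0.0568 to 0.239), and the calls of MLX (Log2 FC −0.17, adjusted p = 0.135, and −0.16, adjusted p = 0.218) and of MNT (Log2 FC 0.59, adjusted p = 0.121) were lost without replicate 2 of 1.0 μM THZ531. MYC had a Log2 FC of 0.20 between the lapatinib combination and 1.0 μM THZ531 (95% interval 0.02 to 0.37, adjusted p = 0.09), which did not pass. The nilotinib combination also gave 0.20 (95% interval 0.02 to 0.38, adjusted p = 0.0955). DESeq2 called MYC higher in both (Log2 FC 0.22, adjusted p = 0.0405 and 0.0479). Without replicate 1 of 1.0 μM THZ531 edgeR called it too (Log2 FC 0.30, adjusted p = 0.0112 and 0.0115). With only the 2 groups fitted MYC was not called (adjusted p = 0.165 in both).

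**Figure D5:**
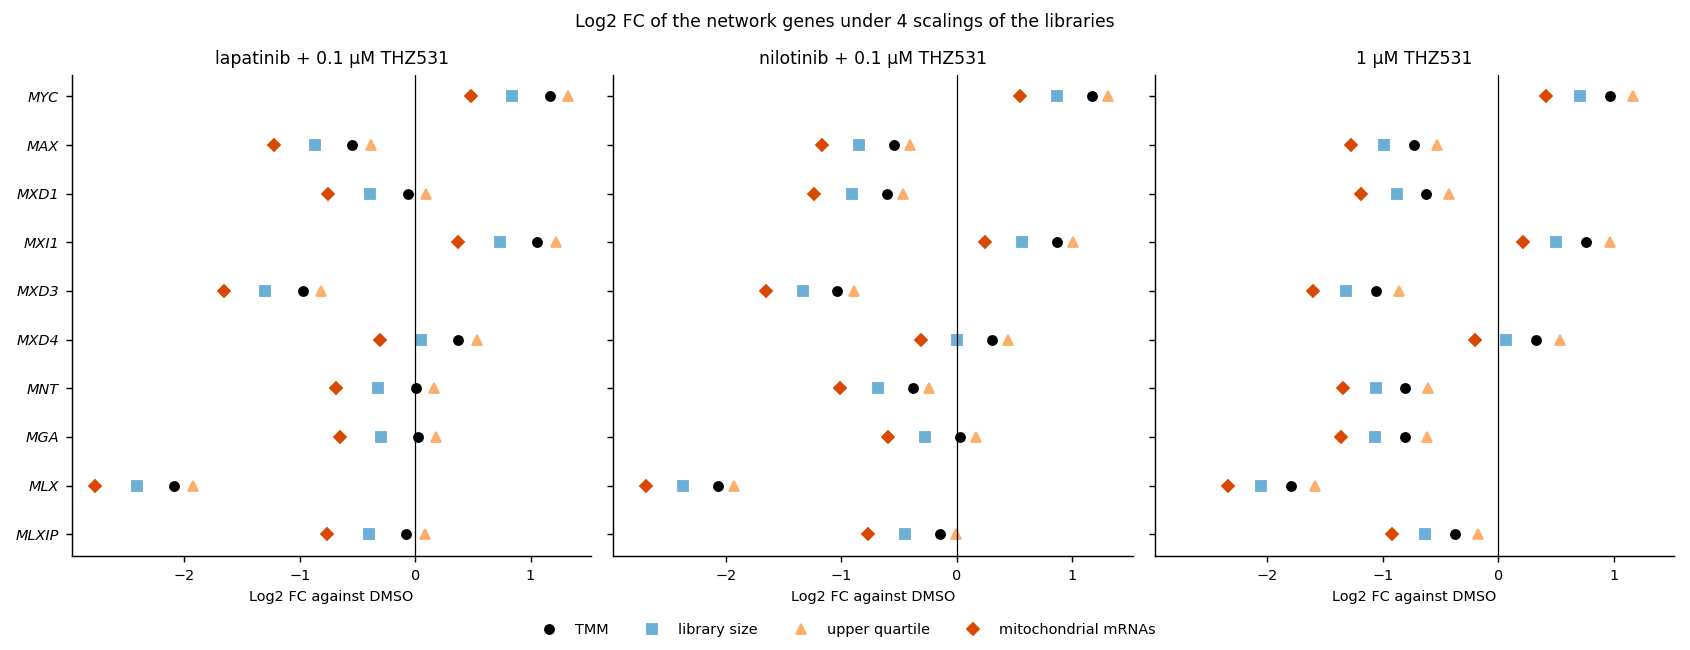
Log2 FC against DMSO of the 10 genes in the combinations and 1.0 μM THZ531, with libraries scaled by TMM, by library size, by the upper quartile or by 13 mitochondrial mRNAs. MLX, MAX and MXD3 are below 0 and MYC and MXI1 above 0 under all 4 scalings, whereas MXD4 is below 0 with the mitochondrial mRNAs.

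The 5 coding genes whose 7 group means ran closest to those of MYC were NDUFAF2, PKD1, ISG15, NTM and S100A4, out of 10521 candidates. The root mean square difference of their centred Log2 CPM from those of MYC was 0.070 to 0.085. NDUFAF2, an assembly factor of mitochondrial complex I, came first, with Log2 FC of 1.03, 0.99 and 0.90 in the strong treatments. The genes were picked for this closeness, so their Log2 FC are not a separate result. No other member of the network was among these 5, which says little with 10521 candidates.

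Genes that work with the network were then counted from lists. The shares of all genes beside these counts are on the TMM scale. No such share is given for mitochondrial scaling, so list counts on that scale have no background. Of all tested genes, 37.8% were lower and 34.3% higher in the lapatinib combination, 37.3% and 33.7% in the nilotinib combination, and 36.8% and 33.1% with 1.0 μM THZ531. Of 12 tested MYC cofactors, 4 were lower and 4 higher in the lapatinib combination, 3 and 5 in the nilotinib combination, and 5 and 5 with 1.0 μM THZ531, so that 8 of 12 were called in each combination where 72.1% and 71% of all genes were. ZBTB17, which encodes MIZ1, the partner through which MYC represses, went from 15.03 ± 2.0 to 41.6 ± 4.8 CPM in the lapatinib combination (Log2 FC 1.47, adjusted p = 7.41e-09). The acetyltransferase KAT5 (Log2 FC −1.46, adjusted p = 9.56e-10) and the nucleosome remodeller subunit BPTF (Log2 FC −1.27, adjusted p = 0.00117) were lower. The median of the list was 0.03, beside −0.01 over all genes. With mitochondrial scaling 8 cofactors were lower and 2 higher in each combination.

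Genes of MYC protein turnover that were called were mostly lower. On the mitochondrial scale 13 of 14 were lower in each strong treatment. That scaling moved the median Log2 FC of all genes by −0.68, −0.62 and −0.54, so these counts add nothing about the list. Of 14, 10 were lower and 1 higher in the lapatinib combination, 7 and 2 in the nilotinib combination, and 9 and 1 with 1.0 μM THZ531, with list medians of −0.39, −0.22 and −0.42 beside −0.01 over all genes and 37.8%, 37.3% and 36.8% of all genes lower. The list holds genes of opposite effect on MYC. The deubiquitinase USP37, which stabilises MYC, fell from 25.3 ± 1.2 to 7.03 ± 0.43 CPM (Log2 FC −1.85, adjusted p = 1.09e-11). AURKA, a kinase that also protects MYC family proteins from degradation, had a Log2 FC of −1.51 (adjusted p = 4.13e-08), and the ubiquitin ligase subunit BTRC −0.80 (adjusted p = 3.44e-08).

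MXD and MNT proteins repress through SIN3 complexes, and MGA is a subunit of the Polycomb complex PRC1.6. Of 14 SIN3 genes, 6 were lower and 6 higher in the lapatinib combination, 6 and 5 in the nilotinib combination, and 6 and 5 with 1.0 μM THZ531, beside 37.8% lower and 34.3% higher, 37.3% and 33.7%, and 36.8% and 33.1% of all genes. The scaffold SIN3B was lower (Log2 FC −1.04, adjusted p = 6.54e-10), as was ARID4A (−0.85, adjusted p = 6.82e-04), and ING1 (1.05, adjusted p = 1.46e-06) and the histone chaperone RBBP7 (0.85, adjusted p = 2.73e-09) were higher. Of 11 tested PRC1.6 genes, 4 were lower and 4 higher in the lapatinib combination, 4 and 5 in the nilotinib combination, and 5 and 4 with 1.0 μM THZ531, beside the same shares of all genes. L3MBTL2 fell from 25.6 ± 2.1 to 5.93 ± 0.47 CPM (Log2 FC −2.11, adjusted p = 3.38e-14), the DNA-binding subunit E2F6 had −1.18 (adjusted p = 1.88e-06) and PCGF6 −0.75 (adjusted p = 3.41e-06), and the deacetylase HDAC1 had 0.83 (adjusted p = 8.56e-10). With mitochondrial scaling 0 to 1 genes of either list were higher. The medians of both lists lay between −0.26 and 0.05 in the strong treatments.

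Called genes among the MYC-activated targets lay in both directions. Of 36 tested MYC-activated genes, mostly of ribosome production and nucleotide synthesis, 13 were lower and 16 higher in the lapatinib combination, 14 and 16 in the nilotinib combination, and 16 and 14 with 1.0 μM THZ531, with medians of 0.12, 0.11 and −0.00. Of all genes 37.8%, 37.3% and 36.8% were lower and 34.3%, 33.7% and 33.1% higher. With mitochondrial scaling 21 to 22 were lower and 0 higher, where the median Log2 FC of all genes moved by −0.68, −0.62 and −0.54. The 4 with the largest change were all lower: the nucleolar GNL3 went from 64.8 ± 1.4 to 19.4 ± 2.8 CPM (Log2 FC −1.74, adjusted p = 3.46e-12), the pyrimidine enzyme CAD had −1.56 (adjusted p = 3.13e-13), the phosphatase CDC25A −1.50 (adjusted p = 5.32e-07) and the ribosome assembly factor GRWD1 −1.39 (adjusted p = 3.94e-10). Of 9 genes known as repressed by MYC, 7 were higher and 1 lower in each combination, and 4 were higher and 3 lower with 1.0 μM THZ531, beside the same shares of all genes. The direction of this list depended on the scaling: on the mitochondrial scale 2 and 1 were higher and 3 and 3 lower in the combinations. GADD45A (Log2 FC 1.89, adjusted p = 9.07e-11), the cell cycle inhibitors CDKN1A (1.28, adjusted p = 1.99e-10) and CDKN2B (0.76, adjusted p = 3.17e-06) were higher, and THBS1 (−0.92, adjusted p = 2.64e-05) was lower, and MYC itself was higher in the same libraries.

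Of 5 targets of MLXIP and MLX, TXNIP is the best known, a glucose-induced gene that limits glucose uptake. It went from 38.1 ± 2.5 CPM in DMSO to 90.4 ± 6.9 in the lapatinib combination (Log2 FC 1.25, adjusted p = 0.0017), where MLX was lower. With nilotinib alone it was lower (Log2 FC −1.81, adjusted p = 0.0196), with lapatinib alone it had −1.23 (adjusted p = 0.154), and in the nilotinib combination 0.32 (adjusted p = 0.382). In the lapatinib combination HK2, a glycolytic hexokinase, was higher (0.74, adjusted p = 1.19e-04), KLF10 lower (−0.25, adjusted p = 0.0201), and PFKFB3 (−0.17, adjusted p = 0.201) and the low-count ARRDC4 (0.39, adjusted p = 0.408) did not pass. Of the 5, 1 was lower and 2 higher in the lapatinib combination, and 0 and 1 in the nilotinib combination. With 1.0 μM THZ531, where MLX was lower too, 2 were lower and 1 higher. List medians were 0.39, 0.32 and −0.13. Of all genes 37.8%, 37.3% and 36.8% were lower and 34.3%, 33.7% and 33.1% higher. With mitochondrial scaling no gene of this list was called higher.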

How the data were processed

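Gene counts of 21 unstranded polyA libraries of Hs578T (paired-end reads, GRCh38) were analysed as deposited. The deposited counts were made by the authors with HISAT2 2.1.0 and featureCounts, per the labels and the methods of the study; the authors tested them with DESeq2. Library totals were above the number of read pairs named in the labels, so an alternative halved the counts. Library depth was 97612207 to 112229052 counts. The study describes the replicates as independent experiments, and the labels only number them; p-values cover the spread between these samples.

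Counts were scaled by TMM and fitted with edgeR 4.0.16 (quasi-likelihood test, R 4.3.3, filterByExpr) as 7 group means; Benjamini-Hochberg adjustment covered all 16036 tested genes and calls were made at an adjusted p under 0.05. Ratios used an exact permutation test. Alternatives were other scalings, filters, DESeq2 1.42.0, the replicate number as a block, fits of the compared groups only and leaving out each library. The script was tested on simulated counts. Entrez IDs matched RefSeq names for 27745 of 28395 genes; lengths were those of canonical transcripts (GENCODE), with the union of exons as an alternative chosen after seeing the data. Network genes are all described; from other lists the named genes are those called with the largest Log2 FC in the lapatinib combination (at most 4, or all for lists of 5 or fewer); some of these are not reported here. Members and lists were chosen with earlier results of these data known.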

Additional observations from a re-analysis of the deposited data

Results flagged for a closer look

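The interaction of an inhibitor with 0.1 μM THZ531, the part of a combination's Log2 FC not given by adding both agents, passed edgeR's test for 6 network genes with each inhibitor. For lapatinib and then nilotinib it was 0.78 and 0.73 for MYC, −0.64 and −0.64 for MAX, −0.69 and −0.81 for MXD3, 0.27 and 0.29 for MXD4, 0.53 and 0.59 for MXI1, and −1.85 and −1.94 for MLX. The direction was the same with both inhibitors for each of these genes, and the DMSO and 0.1 μM THZ531 libraries are shared between both sets. The terms are on the TMM scale. Such terms were called for 60.3% and 56.8% of all tested genes, so they are not particular to the network.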

How the results depend on the processing

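Of the Log2 FC of single network genes, those for MYC, MAX, MXD3 and MLX in the combinations and with 1.0 μM THZ531 against DMSO kept their direction and call under every alternative, each left-out library included. The counts of members under the alternatives below stand without the share of all genes called under the same alternative. They show how the calls depend on processing and are not results about the network. Scaling to the 13 mitochondrial mRNAs changed most counts, and moved the median of all genes by −0.68, −0.62 and −0.54 in the strong treatments. It gave 7 members lower in each combination against DMSO and 1 higher in the nilotinib combination and with 1.0 μM THZ531. It gave 0 higher with 0.1 μM THZ531, 7 lower and 1 higher for the lapatinib combination against lapatinib, 8 lower and 1 higher for each combination against 0.1 μM THZ531, 1 higher for 1.0 against 0.1 μM THZ531, 0 lower when the nilotinib combination was set against 1.0 μM THZ531, and 6 lower and 0 higher for each interaction. It turned MXD4 to −0.31, −0.31 and −0.20 against DMSO, to −0.46, −0.47 and −0.36 (both combinations and 1.0 μM THZ531) against 0.1 μM THZ531, to −0.12 for the lapatinib combination against lapatinib and to −0.28 and −0.15 in the interactions. It turned MXI1 to −0.11 (1.0 μM THZ531) and −0.0851 (nilotinib combination) against 0.1 μM THZ531 and to −0.0144 in the lapatinib interaction. MNT became −0.68 in the lapatinib combination against DMSO, and MGA −0.65 and −0.60 in the combinations against DMSO, −0.65 and −0.60 against 0.1 μM THZ531 and −0.50 against lapatinib. Library size scaling turned MXD4 to −0.0481 (1.0 μM THZ531) and −0.0701 (lapatinib combination) against 0.1 μM THZ531 and −0.0262 in the lapatinib interaction. It gave 1 member lower with 0.1 μM THZ531 (MLX), 5 lower for the lapatinib combination against lapatinib, 5 lower and 1 higher in the lapatinib interaction and 5 lower in the nilotinib interaction. The shift of the median of all genes is part of how these scalings are built. Library size scaling moved it by −0.33, −0.30 and −0.26 in the strong treatments, and upper-quartile scaling by 0.16, 0.14 and 0.20.

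Fitting only the compared groups gave 1 member lower with 0.1 μM THZ531 and 0 lower and 0 higher for each combination against 1.0 μM THZ531; the residual spread then comes from 6 libraries. For the lapatinib combination against 1.0 μM THZ531 the higher count was 6 with the size factors of DESeq2 (RLE), 5 with at least 10 counts in every library and 7 with DESeq2's own test, which also gave 3 for the nilotinib combination and 1 with nilotinib alone; the cause was not tested. Leaving out single libraries gave 0 to 1 lower and 0 to 1 higher with 0.1 μM THZ531, 4 to 7 lower with 1.0 μM THZ531 (4 without its replicate 2), 0 to 1 lower and 2 to 5 higher for the lapatinib combination and 0 to 1 lower and 1 to 3 higher for the nilotinib combination, both set against 1.0 μM THZ531, and 3 to 5 lower in the nilotinib interaction (5 without replicate 3 of the nilotinib combination). With canonical transcripts replaced by the union of exons, a choice made after seeing the data, the MYC share was 42.4% in DMSO and 59.3%, 61.9% and 60.8% in the strong treatments.

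The replicate block kept the call of 168 of 170 results of network genes. It added MLXIP for the lapatinib combination against 1.0 μM THZ531 (0.29, adjusted p = 0.0472, 4 members higher) and in the nilotinib interaction (−0.38, adjusted p = 0.0354, 4 lower). Libraries of the same number correlated at 0.15 on average (−0.83 to 0.89 over 63 pairs), those of different numbers at −0.07, and 8 of 21 libraries correlated best with their own number. In 4 of 15 comparisons every pair was over 0.1, and the block changed no call there. Each member held at least 385 counts in every library.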
